A study of Mus musculus with 58 samples.

Results

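ChrRNA-seq, the sequencing of RNA that stays bound to chromatin and so is largely newly made, was compared between cells with a mutant SPOC domain of SPEN and their parental line after 3 days of Xist induction during differentiation towards neural precursor cells (NPC). The 4 libraries, of 58 in the series, were chosen by their titles: 2 from the SPOC mutant (clones D9 and H1) and 2 from parental cultures, called WT below. All 4 came from female mouse embryonic stem cells (mESC) of a 129S x Cast hybrid. In all of them a TetOn promoter stands in place of Xist's own promoter on the 129S (Dom) allele, and doxycycline at 1 µg/mL switched Xist on for 3 days in N2B27 medium. The mutant lines also carry point mutations of the SPOC domain that abolish binding of the SMRT and NCoR corepressors. Each mutant line is 1 clone, and the WT libraries are replicates of 1 line. Per the study, WT and the clones were differentiated side by side in duplicate, but which WT replicate went with which clone is not given in the sources used here. An allelic ratio, Dom fragments over Dom plus Cast fragments, could be followed for 246 of the 908 X-linked genes, and total expression for 22556 genes on all chromosomes. SPOC cultures on day 0 (mESC without doxycycline, the same 2 clones), both lines on day 6, and a second parental line with and without the mutation (the PCGF35 line, whose PCGF3 and PCGF5 carry a degradable tag, here without the degrader) served for comparison. No WT library of day 0 was analysed here.

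Xist is the long noncoding RNA that coats the X chromosome it is made from and silences its genes. SPEN binds Xist through its RNA recognition motifs and recruits, through its C-terminal SPOC domain, corepressors including NCoR and SMRT, which hold the histone deacetylase HDAC3. Doxycycline switches on Xist from the Dom X here, while the Cast X keeps the native promoter. An allelic ratio near 0.5 therefore means that both alleles give RNA alike, and a ratio of 0 that all of it comes from the Cast X. Cultures were measured in bulk, so fewer cells with an active Dom allele and less Dom RNA per cell cannot be told apart.

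The 4 libraries held 13832632 to 17035804 gene-assigned fragments, of which 47.1 to 49.6% could be given to an allele. The median ratio gene had 210 and 174.5 allelic fragments in the SPOC clones, against 123.5 and 134 in WT. Both pairs of replicates stood further apart than sampling noise (chi-square per degree of freedom 19.2 in SPOC and 39.3 in WT), so each library counted as 1 sample. The X distal to Xist could not be followed by allele, as 0 of its 328 genes has a ratio. At this stage the cultures still held RNA of mESC markers. Zfp42, a marker of naive cells, was at 293 to 413 counts per 1000000 fragments (CPM). Esrrb, a naive pluripotency factor, was at 348 to 598 CPM. Some mESC markers were lower than on day 0, with no test between the days. In D9 and H1, Zfp42 was at 378 and 413 CPM, against 560 and 472 CPM on day 0. Nanog was at 37.2 and 40.9 CPM against 64.9 and 43.2 CPM, and Klf4 at 9.98 and 16.8 CPM against 83.0 and 51.0 CPM. Among the neural progenitor markers, the intermediate filament gene Nes was at 5.26 to 14.7 CPM and the neural transcription factor Pax6 at 3.25 to 6.63 CPM. In the clones Pax6 was at 6.63 and 5.73 CPM, against 1.14 and 1.41 CPM on day 0. Other progenitor genes went both ways. Meis2 was at 83.1 and 72.8 CPM against 12.6 and 23.2 CPM on day 0, but Msi1 at 2.52 and 5.06 CPM against 8.48 and 8.52 CPM. Zfp521 was lower in D9 (76.8 against 214 CPM) and higher in H1 (96.6 against 34.5 CPM). Sox1 and Olig2 were listed at 0 in all 4 libraries, and so was Sox2, which mESC express, so a 0 there says nothing about the cells. The NPC label thus names the differentiation protocol and not a finished cell type. Feeder fibroblast markers summed to 420.4 and 553 CPM in SPOC and to 631 and 504 CPM in WT, with 7 of the 12 genes tested and none past an unadjusted p of 0.05.

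Xist, the inducing RNA on X:103460372-103483233 (minus strand, mm10), stood at 3975 and 3788 CPM in clones D9 and H1 and at 5142 and 4650.1 CPM in WT. Both clones lay below both WT cultures. The difference did not pass the test (log2 fold change -0.29, SE 0.18, adjusted p = 0.578 by edgeR's quasi-likelihood test over 14332 genes). Over 99.9% of allelic Xist fragments came from the Dom allele in every library of day 3. On day 0 the same clones had 40.4 and 67.2 CPM of Xist, of which the Dom allele gave 54.5 and 79.6%. Xist was also lower with the mutation on day 6, at 5261 and 4507 CPM against 7744 and 9007 CPM, and in the untreated PCGF35 line, at 5774 and 4471 CPM against 7086 and 8345 CPM (log2 fold change -0.62, SE 0.16, adjusted p = 0.686, unadjusted p = 0.00786 by edgeR). Whether the lower mean of Xist in the mutant plays a part in the allelic differences was not tested. The mutated gene, Spen (chromosome 4:141467889-141538597, minus strand), was higher in the clones, at 439.5 and 484 CPM, than in WT, at 161 and 122 CPM (log2 fold change 1.76, SE 0.19, adjusted p = 0.0227). The Dom allele gave 49.7 and 48.8% of Spen fragments in the clones and 47.0 and 47.9% in WT. The point mutations themselves cannot be seen in gene counts, so the level of Spen does not check the genotype.

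As a share of allelic RNA, the Dom X kept most of its part in the SPOC mutant on day 3. Levels of Dom RNA were not compared with day 0. The median allelic ratio over the 246 genes was 0.411 in D9 and 0.405 in H1, against 0.192 and 0.178 in the WT cultures. Both clones lay far above both WT cultures, with a difference of means of 0.223 beside SDs of 0.0041 (SPOC, n = 2) and 0.0100 (WT, n = 2). By an exact permutation test of the library medians, two-sided, p was 0.333, which is as low as 2 against 2 libraries can go. The distribution moved as a whole: the middle 50% of genes spanned 0.289 to 0.487 in D9 and 0.288 to 0.491 in H1, and 0.109 to 0.284 and 0.0945 to 0.262 in WT. A ratio under 0.1, near complete silencing, was reached by 8 and 6 genes in the clones and by 56 and 65 genes in WT. A ratio over 0.4 was held by 132 and 126 genes in the clones and by 12 and 9 genes in WT. Before induction the same clones had medians of 0.500 and 0.519. Taken gene by gene, the mean ratio on day 3 was a median of 80.9% of the clones' own day 0 ratio, with quartiles of 61.4 and 94.5%, and 143 of the 246 genes kept over 75%.

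**Figure D1:**
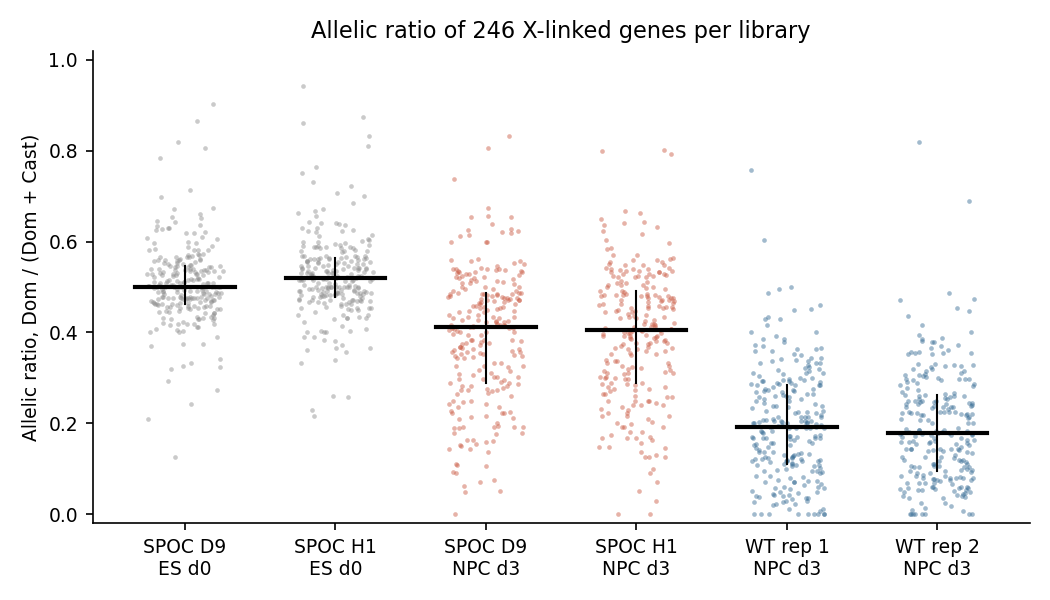
Allelic ratio (Dom over Dom plus Cast fragments, no unit) of the 246 X-linked genes in each library, 1 point a gene, with a horizontal bar at the median and a vertical line from the lower to the upper quartile. The 2 SPOC libraries of day 3 have medians of 0.411 and 0.405, between those of their day 0 libraries (0.500 and 0.519) and those of WT (0.192 and 0.178).

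Gene by gene, the difference ran in 1 direction. For each gene, edgeR's quasi-likelihood test on Dom and Cast fragments gave the change of the log2 odds that a fragment is Dom. At an adjusted p under 0.05 the ratio was higher in SPOC for 197 of 246 genes (80.1%) and lower for 0, and 0 genes were lower at an unadjusted p under 0.05 or by limma. In the means 240 genes were higher and 6 lower. Both clones lay above both WT cultures for 223 genes (90.7%) and below both for 1 (0.407%). The median change of ratio was 0.191, with quartiles of 0.137 and 0.254 and a range of -0.068 to 0.504, and the median change of the log2 odds was 1.47. The 49 genes that did not pass were thinly covered: their poorest library held a median of 13 allelic fragments, against 171 for the genes that passed. Of the 95 genes with at least 200 allelic fragments in every library, 95 passed. Of the 176 genes with at least 50, 168 passed. The clones differed from each other by a median of 0.0368 per gene and the WT cultures by 0.0290, and across the 246 genes, which share their libraries, the ratios correlated at 0.802 between the clones and at 0.812 between the WT cultures.

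**Figure D2:**
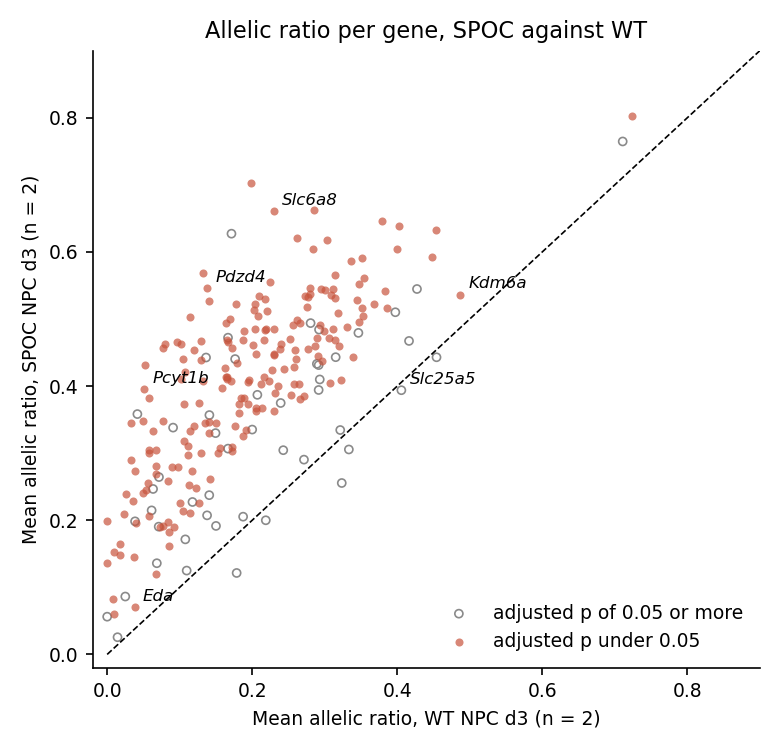
Mean allelic ratio of each of the 246 genes in SPOC (vertical axis, n = 2) against WT (horizontal axis, n = 2) on day 3, filled where the adjusted p was under 0.05 and open otherwise, with a dashed line of equality. The 240 genes above the line include 197 that passed, while Slc25a5 lies just below it and Eda and Kdm6a close to it.

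Among genes with at least 50 allelic fragments in every library, the largest change was in Slc6a8, the creatine transporter (X:73673132-73682500). Its ratio was 0.654 and 0.667 in D9 and H1 and 0.274 and 0.186 in WT, a difference of 0.430 (log2 odds 2.68, SE 0.31, adjusted p = 4.57e-16). The clones lay above 0.5, as they did on day 0 (0.523 and 0.599). Pdzd4, which encodes a PDZ domain protein (X:73793356-73824969), had ratios of 0.540 and 0.552 in the clones and 0.133 and 0.143 in WT, 0.408 apart (log2 odds 2.90, SE 0.15, adjusted p = 8.95e-64). Chic1 (X:103356475-103396118) is the ratio gene nearest to Xist. Its ratios of 0.519 and 0.536 in the clones and 0.141 and 0.140 in WT differed by 0.387 (log2 odds 2.77, SE 0.17, adjusted p = 7.21e-48). In the clones it was thus close to equal expression of both alleles.

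The remaining genes of this kind fell by role into transporters and signalling, and into enzymes and a corepressor subunit. Slc7a3, a cationic amino acid transporter, had ratios of 0.478 and 0.453 against 0.0895 and 0.104 in WT. Mcf2, a guanine nucleotide exchange factor, had 0.477 and 0.450 against 0.118 and 0.0842. Itgb1bp2, which binds the tail of integrin beta 1, had 0.446 and 0.469 against 0.0459 and 0.107. The differences of these 3 ran from 0.362 to 0.381. Pola1, the catalytic subunit of DNA polymerase alpha, had ratios of 0.486 and 0.504 against 0.169 and 0.158. It was among the best covered genes, with 8409 to 17559 allelic fragments a library. Tbl1x, a subunit of the NCoR and SMRT complexes themselves, had 0.471 and 0.463 against 0.116 and 0.142. Pcyt1b, an enzyme of phosphatidylcholine synthesis, was nearly silent on the Dom X of WT, at 0.0429 and 0.0594, and stood at 0.383 and 0.408 in the clones. Gm6938, a predicted gene, had 0.638 and 0.604 against 0.264 and 0.261.

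A few well covered genes changed little, from opposite ends of the scale. Eda, the ectodysplasin ligand (X:99975605-100400760), was close to silent in both lines, at 0.0711 and 0.0700 in the clones and 0.0368 and 0.0389 in WT. The difference of 0.0327 passed the test (log2 odds 0.94, SE 0.18, adjusted p = 1.05e-06), but not limma on the ratios (adjusted p = 0.193). The same clones had ratios of 0.445 and 0.455 on day 0. Kdm6a, the H3K27 demethylase UTX and a known escape gene (X:18162666-18279358), was expressed from both alleles in both lines. Its ratios were 0.534 and 0.538 in the clones and 0.488 and 0.486 in WT, 0.0492 apart (log2 odds 0.28, SE 0.12, adjusted p = 0.0222). That call was lost without SPOC replicate 1, SPOC replicate 2 or WT replicate 2 (adjusted p = 0.140, 0.177 and 0.0545 by edgeR), and with a block that pairs WT replicate 1 with D9 and 2 with H1 (adjusted p = 0.0703). Rpgr, a protein of the cilium, stood at 0.409 and 0.411 against 0.337 and 0.307. 4930519F16Rik, a transcript near Xist, had 0.222 and 0.200 against 0.106 and 0.123. By limma on the log2 odds Rpgr had an adjusted p of 0.0512, but by edgeR's test it and 4930519F16Rik passed with adjusted p of at most 0.000195. Slc25a5, the mitochondrial ADP/ATP carrier, did not: its ratios of 0.383 and 0.405 in the clones lay between the WT values of 0.339 and 0.472 (log2 odds -0.08, SE 0.26, adjusted p = 0.773).

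The promoters of a pair of genes with large changes of ratio and a pair with small ones are printed. They show what stretch of DNA lies at the starts of these genes, since SPEN is known to act at promoters of active genes. Each runs from 250 bases before to 50 bases after the start in the RefSeq table, 5′ to 3′ on the gene's strand, from RefSeq (build GRCm38.p6), with every CG dinucleotide in capitals. For Kdm6a that start lies upstream of the one in the deposited annotation, given above. The stretches are chrX:73824920-73825219 (Pdzd4, minus strand), chrX:103356226-103356525 (Chic1, plus), chrX:99975356-99975655 (Eda, plus) and chrX:18162325-18162624 (Kdm6a, plus).
Pdzd4: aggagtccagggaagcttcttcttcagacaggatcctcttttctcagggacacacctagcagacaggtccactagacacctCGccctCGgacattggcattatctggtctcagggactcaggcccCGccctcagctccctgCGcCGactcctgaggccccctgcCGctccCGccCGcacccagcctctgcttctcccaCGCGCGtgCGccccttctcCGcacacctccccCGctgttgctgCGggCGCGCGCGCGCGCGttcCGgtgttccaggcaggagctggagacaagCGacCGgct
Chic1: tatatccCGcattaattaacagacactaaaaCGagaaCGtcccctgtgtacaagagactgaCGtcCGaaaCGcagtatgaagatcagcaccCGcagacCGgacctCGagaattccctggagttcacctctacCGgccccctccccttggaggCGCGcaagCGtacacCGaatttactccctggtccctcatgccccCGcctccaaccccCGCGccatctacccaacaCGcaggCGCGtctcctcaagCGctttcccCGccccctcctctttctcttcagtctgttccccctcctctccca
Eda: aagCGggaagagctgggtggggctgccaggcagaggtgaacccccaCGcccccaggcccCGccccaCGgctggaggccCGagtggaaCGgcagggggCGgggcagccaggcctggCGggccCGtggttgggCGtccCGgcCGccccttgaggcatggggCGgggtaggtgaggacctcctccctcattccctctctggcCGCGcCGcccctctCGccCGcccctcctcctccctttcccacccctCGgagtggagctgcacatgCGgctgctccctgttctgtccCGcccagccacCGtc
Kdm6a: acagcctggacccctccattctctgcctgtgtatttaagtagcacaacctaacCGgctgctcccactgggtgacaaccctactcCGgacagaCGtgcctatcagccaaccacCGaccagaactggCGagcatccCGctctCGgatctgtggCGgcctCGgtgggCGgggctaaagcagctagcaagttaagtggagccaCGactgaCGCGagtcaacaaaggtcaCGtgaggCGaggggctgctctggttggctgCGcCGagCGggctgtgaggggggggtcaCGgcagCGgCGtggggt
They hold 25, 22, 22 and 21 CG, respectively. As many or more CG were found in 18.4, 23.1, 23.1 and 24.8% of the 32851 promoters of the same length in the RefSeq table, whose median was 7. For 205 of the 246 genes a promoter was matched, with a median of 18 CG. Split into 3 equal groups from the smallest to the largest change of ratio, the genes had medians of 16, 17 and 19.5 CG.

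Grouped by function, the change ran through every list of X-linked genes that was examined. The counts that passed stand beside 80.1% of the 246 genes, and depth differed between the lists. Median fragments in the poorest library were 400 for chromatin and transcription, 382 for the ubiquitin system and 476 for RNA processing and translation. They were 1073 for known escape genes, 98 for pluripotency and kinase signalling, 129.5 for metabolism and 92 for the neural list, against 105.5 for all. The 21 ratio genes of chromatin and transcription had a median change of 0.229, and 21 passed the test. Some of these calls depended on the test, and some on single libraries. By limma on the ratios and on the log2 odds, Suv39h1 (adjusted p = 0.0522 and 0.0676) and Kdm6a (0.0829 and 0.179) did not pass. Smarca1 did not pass by limma on the ratios over all libraries (adjusted p = 0.146). With 1 library left out, the log2 odds ranged from 2.22 to 5.97 for Smarca1 and from 0.506 to 1.10 for Suv39h1, and neither call held throughout. Hcfc1, a host cell factor that joins histone modifiers to promoters, had ratios of 0.481 and 0.456 against 0.195 and 0.180 in WT. Stag2, a cohesin subunit, had 0.456 and 0.459 against 0.190 and 0.155, and Med14, a Mediator subunit, 0.540 and 0.554 against 0.276 and 0.282. In the ubiquitin system 7 of 7 genes passed (median 0.207), among them the deubiquitinase Usp9x at 0.534 and 0.540 against 0.289 and 0.269. In RNA processing and translation 12 of 13 passed (median 0.174), the largest change being in the ribosomal protein gene Rps4x, at 0.499 and 0.526 against 0.198 and 0.244. Gspt2, a release factor gene with few fragments, did not pass, at 0.189 and 0.286 against 0.0435 and 0.238.

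Among genes of pluripotency and kinase signalling 9 of 11 passed (median 0.199). The kinase gene Araf had ratios of 0.515 and 0.503 against 0.310 and 0.327. Dusp9, a phosphatase of ERK and p38, had 0.417 and 0.300 against 0.0833 and 0 and did not pass (adjusted p = 0.076), except with the block that pairs WT replicate 1 with D9 and 2 with H1 (adjusted p = 0.0138 by edgeR). Nr0b1, the orphan receptor DAX1, had a smaller Dom share in the clones, at 0.179 and 0.240 against 0.0116 and 0.0357. In metabolism and mitochondria 12 of 14 passed (median 0.207), with Hprt of purine salvage at 0.403 and 0.408 against 0.168 and 0.220, and Pdk3, a pyruvate dehydrogenase kinase, at 0.264 and 0.275 against 0.0572 and 0.0788. As changes of ratio, all lists had medians near the 0.191 of the 246 genes, and nothing is particular to a list on that scale. As log2 odds the medians differed more, beside 1.47 for the 246 genes. They were lowest for the known escape genes below (1.01) and for RNA processing and translation (1.03). They were highest for pluripotency and kinase signalling (1.85) and for the neural list below (1.87).

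The neural list stood lower on the scale in both lines. Its 11 ratio genes had a median ratio of 0.297 in SPOC and 0.0633 in WT, against 0.409 and 0.187 for the 246 genes. The change of ratio was alike (0.199, with 10 genes passing), while that of the log2 odds was larger (1.87 against 1.47). They kept a median of 55.6% of their day 0 ratio. Fgf13, which regulates sodium channels and microtubules, had ratios of 0.282 and 0.229 against 0.0555 and 0.0576. Nap1l2, a nucleosome assembly protein of neurons, had 0.163 and 0.235 in the clones and 0 in both WT cultures. Dlg3, a synaptic scaffold, had 0.297 and 0.399 against 0.0325 and 0.0667. The 5 known escape genes with a ratio lay at the other end: their medians were 0.505 in SPOC and 0.352 in WT, with 5 of 5 passing and a median change of 0.166. The RNA helicase gene Ddx3x had 0.484 and 0.525 against 0.351 and 0.354, the ribosome biogenesis factor Utp14a 0.621 and 0.644 against 0.461 and 0.446, and Shroom4, which acts on the cytoskeleton, 0.511 and 0.486 against 0.288 and 0.236.

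Counting each allele by itself showed which X changed. Dom RNA, scaled by all fragments of the library, was higher in SPOC for 201 of 246 genes (81.7%) and lower for 0, at a median of 1.56 in log2 fold change, and 0 were lower at an unadjusted p under 0.05. For Cast RNA the median was 0.11, with 148 genes above and 98 below 0. It passed the test upward for 1 gene (0.407%) and downward for 0, and at an unadjusted p under 0.05 for 13 (5.28%) and 7 genes (2.85%). Pdzd4 shows the pattern: Dom RNA was at 47.0 and 57.7 CPM in the clones and 7.74 and 9.22 CPM in WT (log2 fold change 2.66, SE 0.24), while Cast RNA was at 40.1 and 46.9 CPM against 50.6 and 55.1 CPM (-0.24, SE 0.21, adjusted p = 0.661 by edgeR). Dom RNA of Pola1 rose from 103 and 94.0 CPM in WT to 501 and 558 CPM, beside Cast RNA of 505 and 499.6 CPM in WT and 529.6 and 551 CPM in the clones.

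Fmr1nb, a neighbour of Fmr1, was the gene whose Cast RNA passed. Its Cast RNA was at 36.9 and 35.4 CPM in the clones against 17.2 and 18.7 CPM in WT (log2 fold change 1.05, SE 0.21, adjusted p = 0.0167), and its Dom RNA at 22.4 and 20.8 CPM against 2.24 and 2.00 CPM. Both alleles were thus higher in the mutant, but the Cast call was lost without any 1 of the 4 libraries (adjusted p = 0.106 to 0.383 by edgeR). Slc25a5 also had higher means from both alleles, and so no change of ratio. On the log2 scale its Dom RNA rose by 1.08 (SE 0.27, adjusted p = 0.00944), a call that was lost without SPOC replicate 1 (adjusted p = 0.0576), while its Cast RNA, at 1.14 (SE 0.29), did not pass (adjusted p = 0.102 by edgeR).

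**Figure D3:**
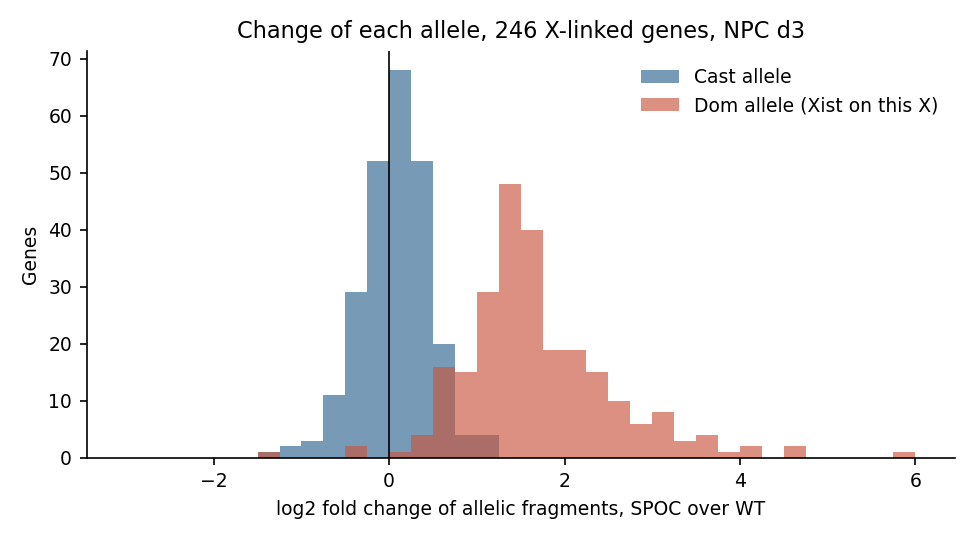
Number of X-linked genes (vertical axis) by log2 fold change of allelic fragments, SPOC over WT, on day 3, for the Dom allele (from which Xist is made) and the Cast allele, over the same 246 genes. The Cast histogram is centred near 0 (median 0.11) and the Dom histogram lies to its right (median 1.56).

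The level of the ratio moved with distance from Xist, and the order of the changes depended on the scale. In steps of 20 Mb away from Xist the median change was 0.181, 0.208, 0.190, 0.247 and 0.174, and Spearman's correlation between change and distance over the 246 genes was -0.047. On the scale of the log2 odds the medians of the same steps were 1.68, 1.57, 1.78, 1.81 and 1.21, lowest in the farthest step. The median ratio was lowest within 20 Mb of Xist in both lines, at 0.303 in SPOC and 0.102 in WT, and highest from 80 to 100 Mb, at 0.460 and 0.264. The rise was not even, as the ratio from 40 to 60 Mb (0.343 and 0.143) lay below that from 20 to 40 Mb (0.410 and 0.180). The 56 genes within 20 Mb kept a median of 58.8% of their day 0 ratio, and the 69 genes beyond 80 Mb 88.3%. In the steps between, this share was 81.5, 68.3 and 92.9%. By expression in day 0 cells, 51.2, 92.7 and 96.3% of genes in the low, middle and high of 3 equal groups passed, with median changes of 0.180, 0.188 and 0.200. Median fragments in the poorest library were 29, 105.5 and 519.5, so the share that passed moved with the depth.

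**Figure D4:**
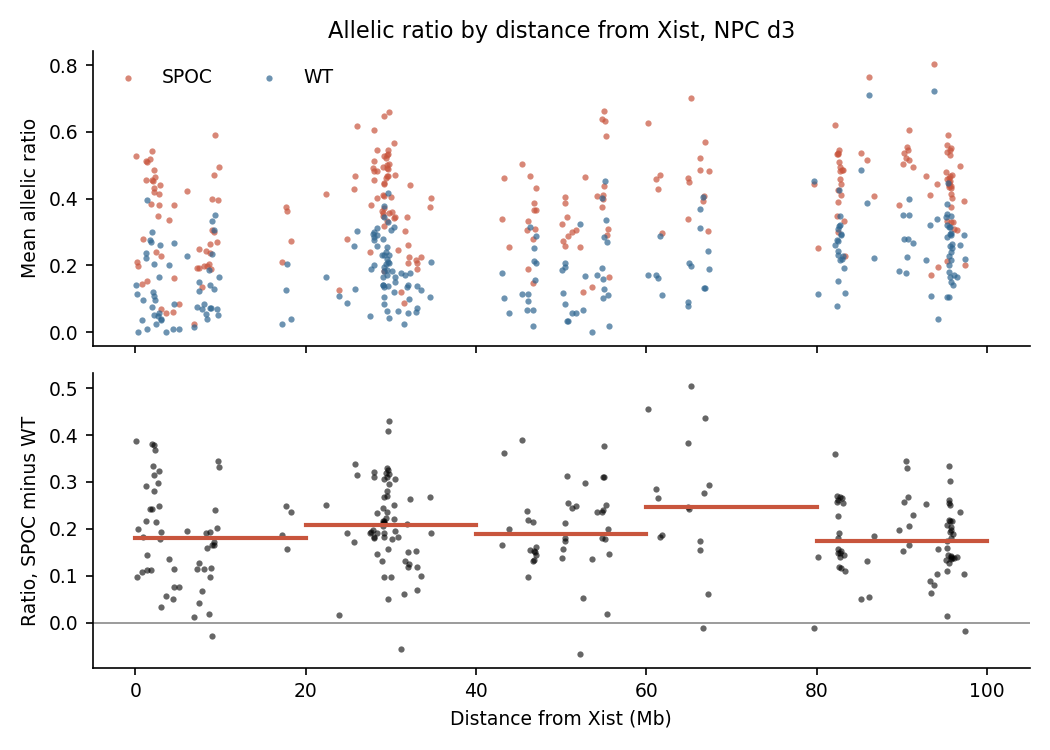
Upper panel: mean allelic ratio of each gene in SPOC and WT on day 3 against its distance from Xist in Mb. Lower panel: the difference SPOC minus WT, with a bar at the median of each 20 Mb step (0.181, 0.208, 0.190, 0.247 and 0.174), where 240 of 246 points lie above 0.

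The study sorts these genes into classes, some of them made from libraries of these lines, so that those classes are no independent evidence. Genes it lists as fast silencing had median ratios of 0.270 in SPOC and 0.0763 in WT, intermediate ones 0.414 and 0.191, and slow ones 0.490 and 0.296. Their changes of ratio were 0.190, 0.210 and 0.187, and on the scale of the log2 odds 2.04, 1.41 and 1.15. The order of the classes therefore depends on the scale: alike as differences of ratio, and largest for fast silencing genes as odds. Fast silencing genes had a median of 13 CG in the promoter, against 19 and 18 in the other classes. The 95 genes listed as SPOC-dependent had a median change of 0.224 and the 151 SPOC-independent ones 0.181, with ratios in the clones of 0.495 and 0.332, but as log2 odds the order turned (1.41 and 1.50). Genes listed as dependent on, partially dependent on and not dependent on SmcHD1, a chromatin protein of the late inactive X, had median changes of 0.218, 0.184 and 0.191, and of 1.48, 1.34 and 1.75 as log2 odds. Genes in active and in H3K27me3-marked chromatin before induction had 0.192 and 0.185, and 1.41 and 1.86 as log2 odds.

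Total expression of X-linked genes moved upward as a group. Over 514 tested X-linked genes the median log2 fold change was 0.48, against -0.02 over 13817 autosomal genes. X-linked RNA made up 51462 and 50895 CPM in the clones and 39605 and 36187 CPM in WT. In the fit without pairs, 15 of 14332 genes were higher (0.105%) and 9 lower (0.0628%) at an adjusted p under 0.05, and 8 of the 24 lie on the X. The count depended on pairing: a block with WT replicate 1 beside D9 and 2 beside H1 gave 824 higher (5.75%) and 860 lower (6%), of which 231 and 12 lie on the X, and the crossed pairing gave 63 (0.44%) and 59 (0.412%). The 24 genes passed under both. At an unadjusted p under 0.05, 225 X-linked genes were higher and 12 lower, of 781 higher (5.45%) and 902 lower (6.29%) in all. The ratio genes had a median of 0.52, the 70 other genes before Xist 0.64, and the 196 genes beyond Xist, which have no ratio, 0.33. For those 196 the allele behind the change cannot be told apart.

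The X-linked genes that rose included Mageb16, A230072E10Rik, Fmr1nb, Ap1s2, Mpp1 and Fam120c. Mageb16, of the MAGE family of germ-line and tumour antigens, was at 27.8 and 21.0 CPM in the clones and 5.86 and 3.70 CPM in WT (log2 fold change 2.41, SE 0.27, adjusted p = 0.0227). Mpp1, a membrane scaffold of the guanylate kinase family, was at 62.0 and 60.9 CPM against 26.8 and 21.9 CPM. Ap1s2, a subunit of the AP-1 clathrin adaptor, was at 81.3 and 86.6 CPM against 37.3 and 28.9 CPM.

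The 16 autosomal genes that passed were split evenly, 8 higher and 8 lower. Those that rose included Spen. Atp2b4, a plasma membrane calcium pump, was at 22.0 and 19.9 CPM in the clones and 5.35 and 5.34 CPM in WT (log2 fold change 2.01, SE 0.22, adjusted p = 0.0227 by edgeR). Cacna1e, an R-type calcium channel, was at 55.2 and 36.2 CPM against 14.0 and 10.7 CPM, and Meis2, a homeobox factor of neural progenitors, at 83.1 and 72.8 CPM against 31.7 and 21.0 CPM. Rgs6, Cadm2, Hpse2 and Nebl rose by log2 fold changes of 1.11 to 1.37. The genes that fell included Enpp2, which makes lysophosphatidic acid. It was at 24.4 and 42.1 CPM in the clones and 174 and 134 CPM in WT (-2.16, SE 0.27, adjusted p = 0.0237). Spon1, the extracellular matrix protein F-spondin, was at 5.58 and 3.93 CPM against 30.9 and 18.3 CPM.

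Dlg2, a synaptic scaffold, was at 6.69 and 6.73 CPM in the clones and 21.5 and 23.7 CPM in WT (-1.71, SE 0.22, adjusted p = 0.0237 by edgeR). Syt1, the calcium sensor of synaptic vesicles, was at 10.7 and 7.33 CPM against 28.3 and 27.7 CPM. Cacnb2, a calcium channel subunit, was at 49.4 and 47.4 CPM against 128 and 118 CPM. Ldb2, a cofactor of LIM-homeodomain proteins, had the largest fall by fold (-2.53, SE 0.37) at a low level, from 6.43 and 4.76 CPM to 1.17 and 0.666 CPM. Fras1, of the basement membrane, and Lpp, of focal adhesions, fell by 1.27 and 1.08 on the log2 scale, the call of Lpp being lost without either SPOC clone (adjusted p = 0.0779 and 0.0859 by edgeR). The number of calls depended on the fit: DESeq2 called 134 higher and 89 lower, and a fit over all 58 libraries called 0 and 0 (618 and 585 at an unadjusted p under 0.05). A fit over both days called 27 higher and 6 lower and held 17 of the 24 genes, without Enpp2 (adjusted p = 0.118 by edgeR), Spon1 (0.0880), Syt1 (0.0539), Fras1 (0.0777), Cadm2 (0.149), A230072E10Rik (0.0601) and Lpp (0.0809).

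**Figure D5:**
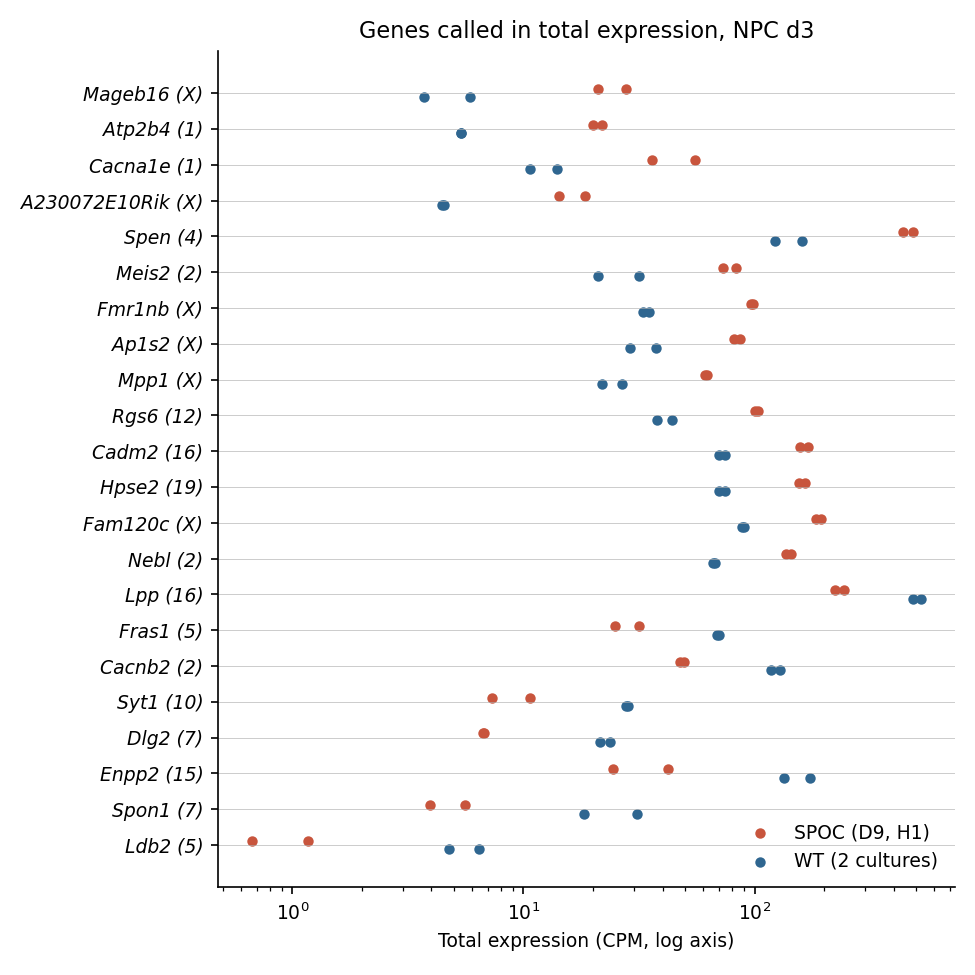
Total expression in CPM (log axis) of 22 of the 24 genes that passed in the comparison on day 3, 1 point a library, with the chromosome of each gene in brackets. The 2 SPOC clones lie to the right of both WT cultures for 14 of the genes shown and to their left for 8.

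Of the lists of autosomal and mixed genes, 2 held a gene that passed without pairs, Meis2 and Spen. The counts below stand beside 0.105% higher and 0.0628% lower over all genes, or 5.45 and 6.29% at an unadjusted p under 0.05, and those of the block with WT replicate 1 beside D9 beside 5.75 and 6%. Naive pluripotency genes moved by a median of 0.14 in log2 fold change, and 0 of 12 passed by edgeR (4 higher and 1 lower at an unadjusted p under 0.05). With that block 4 were higher and 0 lower, and with the crossed one 0 and 0. Nanog, a core factor of this state, was at 37.2 and 40.9 CPM in the clones and 28.6 and 24.2 CPM in WT (adjusted p = 0.257 by edgeR, and 0.00615 with that block). Core and formative genes had a median of -0.49 with 0 of 13 passing (1 and 5 unadjusted), and 12 of the 13 were below 0. With that block 0 were higher and 7 lower, and with the crossed one 0 and 1. The de novo methyltransferase gene Dnmt3b was at 238 and 168 CPM against 517 and 341 CPM (-1.04, SE 0.22, adjusted p = 0.118 by edgeR), and passed under both pairings (adjusted p = 1.08e-06 and 0.0347). Neural progenitor genes had a median of -0.12 with 1 of 12 passing, and neuronal genes -0.48 with 0 of 7 (1 and 2 unadjusted). The progenitor list summed to 961 and 1060.1 CPM in the clones and to 820 and 1049 CPM in WT. Nes was at 12.8 and 5.26 CPM in the clones and at 14.7 and 6.93 CPM in WT, and Vim, another intermediate filament gene, at 22.0 and 18.6 CPM against 25.4 and 17.6 CPM. For both the groups overlapped.

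Notch genes, whose DNA-binding partner RBPJ also recruits SPEN, had a median of -0.29 with 0 of 14 passing (0 and 2 unadjusted). The ligand gene Dll1 was at 3.76 and 2.66 CPM against 8.89 and 5.75 CPM (adjusted p = 0.197 by edgeR, and 0.00357 with the block of WT replicate 1 and D9, under which 0 Notch genes were higher and 3 lower). Of the 11 genes of SPEN and the NCoR-HDAC3 corepressor, 1 passed, Spen itself (median -0.07). The Polycomb genes (median 0.11, 0 of 22, 4 and 1 unadjusted), ERK output (-0.27, 0 of 13, 1 and 2), p53 targets (-0.04, 0 of 14, 1 and 0), ATF4 stress genes (0.01, 0 of 12, 0 and 1), DNA methylation genes (-0.17, 0 of 9, 0 and 3) and mesoderm and endoderm genes (-0.21, 0 of 5, 0 and 2) held no call. Genes of the X inactivation centre and its regulators had a median of 0.29 with 0 of 11 passing (3 and 0 unadjusted). With that block the Polycomb list held 6 higher and 1 lower, the inactivation centre list 3 and 0, and ERK output 1 and 2. DNA methylation genes then held 1 and 2, neuronal genes 1 and 2, and mesoderm and endoderm genes 0 and 1. The p53 list held 1 and 0, the ATF4 list 1 and 1, and the neural progenitor list 1 and 1. The crossed pairing called 0 or 1 gene in each of these lists. The X-linked lists had medians of 0.22 (neural) to 0.66 (RNA processing and translation), beside 0.48 for all X-linked genes. Chromosomes 11 and 16 had allele shares that differed between libraries. The 1138 tested genes of chromosome 11 had a median of -0.19 while the other autosomes lay within 0.06 of 0, and the Dom allele gave 47.9 and 48.0% of its fragments in the SPOC clones but 54.5 and 55.1% in WT. On day 0 that share was 54.5% in D9 and 47.3% in H1. On chromosome 16 the Dom share was 49.6 and 41.0% in the clones and 42.5 and 28.0% in WT, with a median of -0.01. Of the 24 genes 0 lie on chromosome 11 and 2, Cadm2 and Lpp, on chromosome 16. The part of these shares in the autosomal differences was not tested.

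The same mutation was compared on day 6 and in the PCGF35 line, which shares no library with the day 3 comparison. On day 6 the median ratio was 0.335 in SPOC and 0.0859 in WT, 0.249 apart, and 190 of 246 genes passed (77.2%). In untreated PCGF35 cultures of day 3 it was 0.452 with the mutation (clones F10 and F6) and 0.187 without, 0.265 apart. There 217 genes passed (88.2%). For 1 clone of this kind the study interprets raised NPC ratios as selection for cells without the Cast X. Its label for that clone matches neither F10 nor F6. F6 held some XO cells and was sub-cloned before sequencing, per the study. The part of X loss in the differences between the lines was not tested. The effect on the log2 odds was larger on day 6 than on day 3 for 43 genes (17.5%) and smaller for 0, with 73 (29.7%) and 2 (0.813%) at an unadjusted p under 0.05 (edgeR's test of the difference). By limma 0 genes passed either way: on the log2 odds 55 were larger and 3 smaller at an unadjusted p under 0.05, and on the ratios 31 and 14, with a median difference of 0.018. For fast silencing genes the change of ratio was 0.136 on day 6 and 0.190 on day 3. It went the other way for intermediate genes, at 0.235 and 0.210, and for slow ones, at 0.266 and 0.187. Between the lines 0 genes differed by the edgeR test (3 larger and 19 smaller in the parental line at an unadjusted p under 0.05, 1.22 and 7.72%), and the median difference was -0.19. Spen was higher with the mutation there too in both cultures, at 324 and 573 CPM against 158 and 155 CPM, without passing the test (adjusted p = 0.686 by edgeR, unadjusted p = 0.002). On day 6 it was at 498 and 488 CPM in the clones and 149 and 118 CPM in WT. Not all 24 called genes repeated in untreated PCGF35 cultures. The log2 fold change turned sign there for Syt1 (0.36, against -1.59 in the parental line) and Hpse2 (-0.09 against 1.19). It kept its sign but was small for Cacnb2 (-0.32), Lpp (-0.34), Dlg2 (-0.35) and Spon1 (-0.40). For these genes and Syt1 the clones with the mutation stood apart. F6 lay below both cultures without it for each, while F10 lay above both for all but Dlg2. Lpp was at 823 CPM in F10 and 206 CPM in F6, against 560 and 702 CPM. Syt1 was at 77.1 and 19.8 CPM against 33.3 and 40.4 CPM. For Hpse2, F10 lay below both and F6 above both. The remaining called genes also kept their sign, among them Mageb16 (1.70) and Cadm2 (1.92). In the PCGF35 line 0 genes passed in total expression by edgeR, with 535 higher (3.7%) and 466 lower (3.23%) at an unadjusted p under 0.05.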

How the data were processed

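The authors discarded ribosomal pairs with Bowtie2 2.3.2 and mapped what was left with STAR 2.4.2a to an mm10 genome masked at strain differences, per the submitters' notes and the methods. SNPsplit gave pairs to an allele, and featureCounts (1.5.2 per the file headers) counted stranded fragments over whole RefSeq transcripts, introns included. The deposited counts are raw whole fragments in 3 columns per library: all, Cast and Dom. The deposited allelic ratios are fractions, Dom over Dom plus Cast counts, which the authors computed for 246 filtered genes. Recomputing them from the counts gave a largest difference of 5.6e-16. No molecular identifiers were used, so depth covers counting error only.

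Groups came from sample titles. Allele counts were tested with edgeR 4.0.16 (R 4.3.3), glmQLFit and glmQLFTest with 1 term per library, an allele term and allele by line. Dom and Cast counts were also tested apart, with TMM factors and library sizes from total counts. Total counts were tested after filterByExpr and TMM over 14332 genes. Benjamini-Hochberg adjustment ran over all genes of a test, with a threshold of 0.05. CPM is the count over the library total, times 1000000, and compares a gene between libraries, not genes with each other. The median ratio per library was compared by an exact permutation test. The study describes duplicate experiments with WT and the clones (D9 and H1) side by side, and not which WT replicate belongs to which clone. The tests were therefore run without pairs, and both pairings were alternatives, each fitted with 1 term more. Alternatives used limma 3.58.1, DESeq2 1.42.0, other filters, scalings, library sets and a replicate block, and left out each library in turn. Gene classes were those the study lists per gene, and promoters came from a RefSeq table.

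The genes named were Xist and Spen, list members, up to 10 genes with the largest change of ratio (adjusted p under 0.05, no overlap, at least 50 allelic fragments in every library), up to 5 with the smallest (at least 200 fragments), and up to 10 per direction in total expression (no overlap, at least 5 CPM in the higher group). Rgs6, Cadm2, Hpse2, Nebl and Fam120c were named besides, as the other genes that rose. Slc25a5 was singled out after its values were seen. A few genes that meet the rule are not reported here. Members, lists and tests were chosen with earlier results of these data known. On simulated data for the comparison of 2 against 2 libraries the total-count test recovered 74% of genes changed 2-fold, over 14332 genes, and the allelic test 74.4% of changed genes, over 246. The simulated spread was set to the same value for every gene and was not taken from these libraries. The total-count figure rests on 1 draw. These shares therefore do not give the power in the real data, where Dnmt3b, at a log2 fold change of -1.04, did not pass without pairs.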

Additional observations from a re-analysis of the deposited data

Results flagged for a closer look

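The SPOC effect on the allelic odds was larger on day 6 than on day 3 for 43 of the 246 genes by the test of the difference itself (edgeR, adjusted p under 0.05). The SPOC clones are the same on both days. Of the genes named by the rule, F8, the coagulation factor, differed by 2.54 in log2 odds (SE 0.51, adjusted p = 5.36e-05): its change was 1.93 on day 3 and 4.46 on day 6, when its ratios were 0.688 and 0.594 in the clones and 0.082 and 0.067 in WT. Ikbkg, the regulatory subunit of the NF-kappaB kinase, differed by 2.32, with ratios on day 6 of 0.353 and 0.368 against 0.042 and 0.073. Mtcp1 differed by 1.64, Prkx by 1.60 and Gripap1 by 1.50, and each of these 3 calls was lost without 3 to 6 of the 8 libraries in turn.

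Flna, the actin crosslinker filamin A, differed by 1.50 (ratios on day 6 of 0.262 and 0.248 against 0.034 and 0.024). Haus7, of the spindle complex augmin, differed by 1.42, Nsdhl, of sterol synthesis, by 1.41, and Mpp1 by 1.37. Their calls were lost without 6, 2 and 3 of the 8 libraries in turn. Pola1 differed by 1.38 (SE 0.17, adjusted p = 2.45e-11 by edgeR), and its ratios were 0.438 and 0.482 in the clones on day 6 against 0.060 and 0.062 in WT. For the escape gene Kdm6a the difference was 0.49 (adjusted p = 0.0375 by edgeR), a call lost without 7 of the 8 libraries in turn. In WT its ratio was 0.387 and 0.393 on day 6, below the 0.488 and 0.486 of day 3, while the clones had 0.514 and 0.530. The count rests on the test: limma on the ratios and limma on the log2 odds called 0 genes each (31 and 55 larger and 14 and 3 smaller on day 6 at an unadjusted p under 0.05). As a change of ratio, the effect on day 6 exceeded that of day 3 by only 0.013 for Flna and 0.040 for Nsdhl. For Ikbkg and F8 the excess was 0.171 and 0.245.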

How the results depend on the processing

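The direction of the allelic result held throughout: 188 to 206 genes had a higher ratio in SPOC and 0 a lower one under every other test, library set, filter and scale tried, and 174 to 188 without any 1 library. Dom RNA was higher for 206 genes without TMM factors, and for 173 to 201 with 1 library left out. The X-wide difference of 0.223 became 0.196 as a mean over genes, 0.232 over summed fragments and 0.217 over well covered genes, and 0.2158 to 0.230 without 1 library. Depth limited the calls: 37 genes had under 20 allelic fragments in a library, and 5 of them passed.

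Total expression depended on the fit. Against 15 higher and 9 lower, DESeq2 called 134 and 89, the fit without a filter on low counts 251 and 280, the fit over both NPC days 27 and 6, and the fit over all libraries 0 and 0. With 1 library left out, 47 to 467 were called higher and 39 to 483 lower: 47 and 39 without SPOC replicate 1, 60 and 66 without SPOC replicate 2, 467 and 483 without WT replicate 1, and 120 and 158 without WT replicate 2. A lone library was then assumed to vary like the other group. The cause was not tested. The 24 genes kept their direction under all alternatives. The median of X-linked genes, 0.48, ranged from 0.391 to 0.573 without 1 library.

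WT and the clones were differentiated side by side in duplicate, per the study, but neither it nor the labels say which WT replicate went with which clone. As a replicate block, WT replicate 1 with clone D9 and 2 with H1 gave 824 higher and 860 lower genes, and the crossed order 63 and 59. Deviations of the first pairing correlated at 0.419 in expression and 0.272 in ratio, and 2 pairs are too few to fix the pairing from this. The allelic count was 206 with the first and 195 with the crossed pairing.

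For the difference between days, limma on the ratios and on the log2 odds called 0 and 0 genes higher, and edgeR 12 to 45 higher and 0 to 1 lower without 1 library: 12 without SPOC day 3 replicate 1, 19 without replicate 2, and 24 without SPOC day 6 replicate 2. Between the lines, 0 to 3 were larger and 0 to 9 smaller, 3 and 9 of them without replicate 2 of the PCGF35 line with the mutation, and 1 smaller without replicate 1 of that line without it. For Cast RNA 0 to 1 gene was higher, 0 without SPOC replicate 1 or either WT replicate.

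Signs turned with 1 library left out for values that had not passed. The ranges were -0.4774 to 0.322 for Slc25a5, -0.457 to 1.0958 for Efhc2 and -0.059 to 2.627 for Gspt2 (log2 odds). They were -0.1681 to 0.2515 for Tsix, -0.4786 to 0.3608 for Esrrb, -0.9389 to 0.3849 for Nes and -0.26 to 0.2179 for Vim (total log2 fold change), and -0.0322 to 1.2184 for Cast RNA of Slc7a3.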

Other observations

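The 2 SPOC clones did not have like ratios at every gene. Cul4b, a scaffold of ubiquitin ligases, had a ratio of 0.629 in D9 and 0.297 in H1, beside 0.0800 and 0.0789 in WT. Eda changed little as a difference of ratios in the parental line. In untreated PCGF35 cells its ratios were 0.237 and 0.194 with the mutation and 0.073 and 0.055 without. The effect in the parental line was smaller by 1.08 in log2 odds, which did not pass the test of the difference (adjusted p = 0.0625 by edgeR). Both genes were singled out after their values were seen.

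The fall of ratio from day 0 was not absent in the clones. Eda fell from 0.445 and 0.455 to 0.0711 and 0.0700, whereas Chic1, from 0.500 and 0.524, stood at 0.519 and 0.536. These are values of mESC and differentiating cells side by side, with no test between the days.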
